A study of Mus musculus with 21 samples.

Results

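The glomerular transcriptome of Epac1fl/fl mice 11 days after nephrotoxic serum was compared with that of Epac1fl/fl mice given PBS. The libraries were chosen by title: 4 of Epac1fl/fl mice at day 11 of serum and 3 of Epac1fl/fl mice given PBS, 7 of the 21 libraries of the series. All 7 mice were females aged 3 months, carried floxed Epac1 alleles and no Cre, and were littermates of mice in which NPHS2Cre deletes Epac1 in podocytes. Nephrotoxic serum (NTS) had its complement inactivated and was injected into a vein on 2 consecutive days. The titles of the PBS libraries name no day, so an effect of serum and one of time since injection cannot be told apart. Glomeruli were cut from frozen kidney sections by laser microdissection, 1 library was made per mouse, and QuantSeq FWD, a kit that reads the 3' end of polyadenylated RNA, gave the counts. Of 35598 genes in each table, the 3554 with a mean of at least 50 CPM over the 7 libraries were tested, and 32044 lay under that minimum. CPM are reads scaled to a library total of 1000000. The genes just inside were Cpsf6 with a mean of 50.01 CPM and Sh2d3c with 50.01, and those just outside were Rprd2 with 49.98 and Zrsr2 with 49.97. For comparison, the series also held 3 Epac1fl/fl libraries at day 4 of serum, and 3 PBS and 4 day 11 libraries of NPHS2Cre:Epac1fl/fl mice.

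Nephrotoxic serum holds antibodies raised in another species against glomerular material. They bind along the glomerular basement membrane, a sheet of type IV collagen and laminin that lies between the fenestrated endothelium and the podocytes. Podocytes wrap the capillaries with foot processes whose shape depends on actin, and mesangial cells hold the capillary loops together with a contractile cytoskeleton. The model is known for podocyte injury, proteinuria, matrix deposition and, in severe cases, crescents. Epac1, the product of Rapgef3, senses cyclic AMP and switches on the small GTPase Rap1. Because the Cre is absent here, the comparison concerns the response to serum in mice with intact Epac1 genes.

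The libraries held 17957141 to 19470098 reads in PBS and 13421591 to 21049090 at day 11, and genes with at least 1 read numbered 9777 to 10973 against 9933 to 13004 (exact two-sided permutation test, p = 0.229, where 3 against 4 cannot go below 0.057). Ribosomal RNA took 21.9% to 22.9% of reads in PBS and 15.4% to 30.1% at day 11, mitochondrial genes 5.06% to 5.84% against 2.32% to 7.21%, and haemoglobin genes 0.272% to 1.44% against 0.160% to 1.53%. The label held up against markers: the summed level of 35 podocyte genes was 12198 to 15098 CPM in PBS and 12265 to 17061 CPM at day 11, and that of 25 glomerular endothelial genes was 6801 to 9090 and 6220 to 7702 CPM. Proximal tubule genes were also present, at 7682 to 10212 CPM in PBS and at 9023, 8771, 2375 and 4065 CPM in the 4 day 11 libraries, so day 11 replicates 3 and 4 held less of them. Day 11 replicate 1 stood apart by its haemoglobin reads and by the fewest detected genes of its group, and PBS replicate 1 lay alone on the first principal component. Replicates agreed poorly: the Spearman correlation of log2 CPM over the 3554 genes had a median of 0.53 among the PBS libraries, 0.61 among the day 11 libraries and 0.52 between them.

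No gene passed the test. With edgeR's quasi-likelihood test and Benjamini-Hochberg adjustment, 0 of 3554 genes (0%) had an adjusted p under 0.05, and the smallest adjusted p was 0.0917. Genes with an unadjusted p under 0.05 numbered 183, where an even spread of p-values would give 177.7. Of the 183, 120 (3.38% of genes tested) were higher at day 11 and 63 (1.77%) were lower. This nearness to an even spread depended on the filter. Under a looser expression filter, 1147 of 13898 genes had an unadjusted p under 0.05 with edgeR, more than an even spread. There too 0 genes passed the adjusted threshold. Every day 11 library lay above every PBS library for 175 genes (4.92%) and below every PBS library for 157 genes (4.42%). Of the 175, 85 averaged under 50 CPM in PBS, and of the 157, 50 averaged under 50 CPM at day 11, so these reached the minimum only through the group in which they were high. The median log2 fold change over all genes was -0.0017, the median of its absolute value was 0.43, and the median standard error was 0.69. On the same genes and libraries, DESeq2 called 15 genes higher and 2 lower, and limma voom called Sparc higher and Thsd7a lower. The 17 DESeq2 calls were Thsd7a and Pura, both lower, and Spp1, 2310022B05Rik, Tpm4, Tnfaip2, Sparc, Actb, Tuba1b, Qsox1, S100a6, Lgals1, Cald1, Col4a1, Myl12a, Dag1 and Fkbp1a, all higher. All values below are therefore descriptions of these 7 mice. They are read against the shares over all genes just given.

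**Figure D1:**
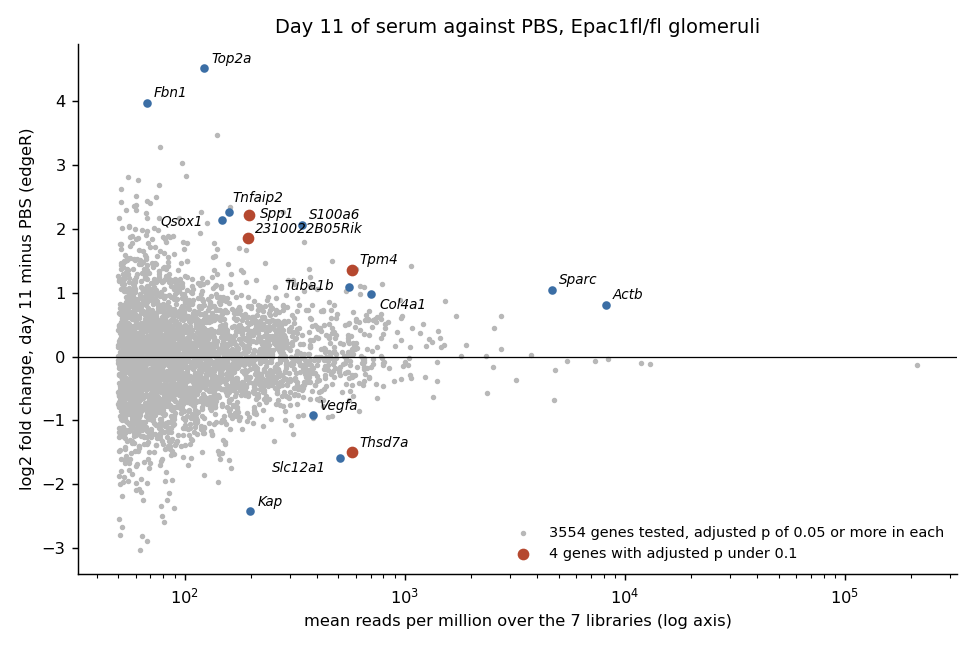
Each grey point is 1 of the 3554 genes, with its mean CPM over the 7 libraries on a log axis and its edgeR log2 fold change, day 11 minus PBS, on the vertical axis. The 4 red genes have an adjusted p under 0.1 and none is under 0.05; Thsd7a is the one of them below the zero line, and blue marks other named genes.

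Genes of the contractile actin cytoskeleton were higher at day 11. Of 30 list members tested, 27 had a positive log2 fold change, with a median of 0.63 against -0.0017 over all genes. At an unadjusted p under 0.05, 13 were higher and 0 lower, and in 11 (36.7%) every day 11 library lay above every PBS library. None passed the adjusted threshold. Summed over the whole list of 33 genes, the level was 15097, 13155 and 14404 CPM in PBS and 22070, 22098, 25504 and 25651 CPM at day 11. The 2 groups did not overlap in this sum, to which abundant genes contribute most. The mean log2 level over the 33 genes (of CPM plus 1) did overlap. It was 7.31, 6.97 and 7.04 in PBS and 7.25, 7.83, 7.94 and 7.86 at day 11, with day 11 replicate 1 inside the PBS range. The list's median log2 fold change stayed between 0.53 and 0.67 when any 1 of the 7 libraries was left out. In bulk glomeruli, a different number of contractile cells and a different amount of RNA per cell cannot be told apart.

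Tpm4, a tropomyosin that runs along actin filaments (chr8:72134975-72153142, plus strand, mm10), measured 269, 314 and 289 CPM in PBS and 464, 722, 822 and 979 CPM at day 11. Its groups were well separated, with day 11 replicate 1 nearest to PBS. The log2 fold change was 1.36 ± 0.29 (SE) with an edgeR adjusted p of 0.093, and over the omission of single libraries it ran from 1.19 to 1.51, with an adjusted p from 0.0447 (without day 11 replicate 1) to 0.467. Actb, cytoplasmic beta-actin (chr5:142903115-142906754, minus strand), measured 5625, 4647 and 6203 CPM in PBS and 10260, 8672, 10958 and 8782 CPM at day 11. All 4 day 11 libraries lay above all 3 PBS libraries, by 0.82 ± 0.19 on the log2 scale (edgeR adjusted p = 0.128). Cald1, caldesmon, which restrains myosin on actin, measured 1201, 917 and 847 CPM in PBS and 1313, 1604, 1948 and 2403 CPM at day 11. The other 2 tropomyosins with a positive fold change stood the same way: Tpm1 averaged 387 ± 160 CPM (SD, n = 3) in PBS and 766 ± 75.1 (n = 4) at day 11, and Tpm3 averaged 94.5 ± 24.7 and 236 ± 31.7.

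Flna, filamin A, which cross-links actin filaments, measured 439, 379 and 311 CPM in PBS and 720, 735, 694 and 1064 CPM at day 11. Actn1, an alpha-actinin, measured 281, 116 and 92.6 CPM in PBS and 384, 288, 446 and 380 CPM at day 11. Myl12a, a regulatory light chain of non-muscle myosin, averaged 181 ± 45.8 CPM in PBS and 466 ± 220 at day 11. None of the 3 overlapped between groups, and their edgeR adjusted p-values lay between 0.372 and 0.662. Acta2, smooth muscle actin and a marker of activated mesangial cells, measured 151, 110 and 272 CPM in PBS and 240, 368, 444 and 517 CPM at day 11, where day 11 replicate 1 fell inside the PBS range. The 3 tested members with a negative fold change were Tpm2 (-0.89 ± 0.66), Csrp2 (-1.14 ± 0.999) and Pdlim7 (-0.07 ± 1.13), each with overlapping groups.

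**Figure D2:**
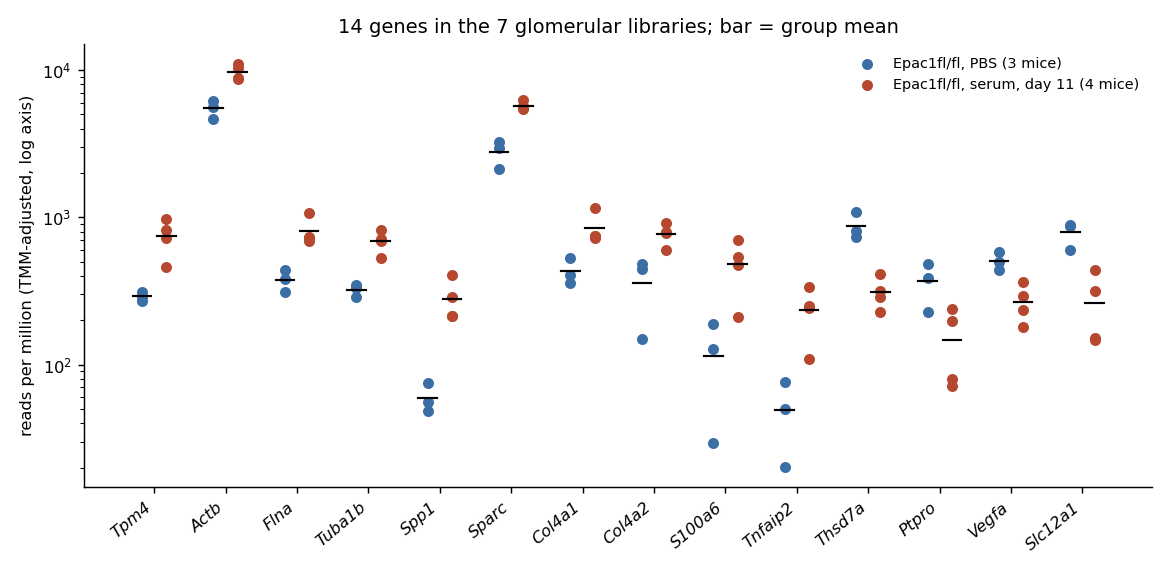
Points are the 7 libraries, with TMM-adjusted CPM on a log axis, blue for PBS and red for day 11, and black bars are group means. From Tpm4 to Tnfaip2 all day 11 points lie above all PBS points; Thsd7a, Vegfa and Slc12a1 lie below, and Ptpro overlaps between 198 to 240 at day 11 and 228 in PBS.

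Many actin genes are textbook targets of serum response factor, which binds the CArG box, CC followed by 6 bases that are each A or T and then GG. The RefSeq promoter windows (GRCm38.p6) matched 29 of the 33 genes in the contractile actin list, and 5 of these (17.2%) held such a box in the 250 bases before the start. The share was 1.62% over all 27025 symbols with a window and 1.52% over the 2820 tested genes with one. The search pattern, though not each box that matches it, is the same on both strands, so 1 strand was searched. None of the 26 matched genes of the extracellular matrix list held it. The 5 sites are printed because they show the motif that these members share, each with the box in capitals and 10 bases on either side, on the strand of the gene.
Actg1: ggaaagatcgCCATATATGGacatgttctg
Cnn2: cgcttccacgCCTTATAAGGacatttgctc
Myl6: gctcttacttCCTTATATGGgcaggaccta
Myl9: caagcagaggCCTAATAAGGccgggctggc
Vcl: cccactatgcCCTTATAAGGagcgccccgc
They lie at chr11:120348566-120348595 (minus strand), chr10:79988534-79988563 (plus), chr10:128493040-128493069 (minus), chr2:156775293-156775322 (plus) and chr14:20929161-20929190 (plus). The first base of the box lay between 50 bases (Myl6) and 227 bases (Vcl) before the start. The 5 genes were not the ones with the widest separation. Actg1 had a log2 fold change of 1.501 ± 0.53, against 0.40 ± 0.54 for Cnn2, 0.17 ± 0.23 for Myl6, 0.34 ± 0.25 for Myl9 and 0.20 ± 0.48 for Vcl, and all 5 overlapped between groups. A match describes letters only, and Actb was not among the windows.

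Tubulin and microtubule genes were likewise higher in each of the 10 members tested. Their median log2 fold change was 0.77, 2 were higher at an unadjusted p under 0.05, and in 2 (20%) the groups did not overlap. The median ran from 0.60 without PBS replicate 2 to 1.10 without PBS replicate 3 as single libraries were left out. Tuba1b, an alpha-tubulin (chr15:98931425-98934565, minus strand), measured 333, 288 and 346 CPM in PBS and 695, 718, 529 and 817 CPM at day 11, a log2 fold change of 1.10 ± 0.25 (edgeR adjusted p = 0.128). Tuba1a, its close paralogue, measured 86.8, 62.0 and 62.4 CPM against 130, 156, 116 and 267 CPM. Reads from the 3' ends of such paralogues may have been split between them by the counting, so the single values are less sure than the sum. The summed level of all 12 members was 1552, 1133 and 1290 CPM in PBS and 1798, 2159, 2665 and 2740 CPM at day 11, without overlap.

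Extracellular matrix genes were also higher at day 11, with wider scatter. Of 39 listed genes 20 reached the minimum, 16 of these had a positive log2 fold change and the median was 0.81. At an unadjusted p under 0.05, 6 were higher and 0 lower. The groups did not overlap in 7 members (35%) that were higher and in 1, Col15a1, that was lower. The other 19 members lay under the minimum, and a gene that is near 0 in PBS reaches it only through day 11, so these counts do not speak for the whole list. The summed level of all 39 was 10484, 8297 and 8363 CPM in PBS and 12750, 13494, 16227 and 15628 CPM at day 11.

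Spp1, osteopontin, a secreted phosphoprotein that binds integrins (chr5:104435118-104441050, plus strand), measured 48.3, 55.4 and 75.5 CPM in PBS and 214, 286, 213 and 403 CPM at day 11. The lowest day 11 mouse lay well above the highest PBS mouse. Its log2 fold change was 2.22 ± 0.46 with an edgeR adjusted p of 0.093, and it ranged from 1.99 to 2.41 as each library was left out. Sparc, a matricellular protein that binds collagen (chr11:55394500-55423183, minus strand), measured 2960, 2124 and 3234 CPM in PBS and 5686, 5452, 6249 and 5514 CPM at day 11. The day 11 values were tight, and the log2 fold change was 1.05 ± 0.24 (edgeR adjusted p = 0.128). Vim, vimentin, the intermediate filament of mesenchymal cells and podocytes, measured 423, 158 and 319 CPM against 449, 691, 983 and 1003 CPM, with day 11 replicate 1 just above the highest PBS mouse.

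The 3 fibrillar collagen chains of the list that were tested had positive fold changes and overlapping groups. Col3a1 measured 57.6, 89.7 and 79.8 CPM in PBS and 63.9, 194, 277 and 292 CPM at day 11, and Col1a2 measured 200, 160 and 174 CPM against 129, 399, 452 and 411 CPM. In both it was day 11 replicate 1 that lay inside or under the PBS range. Col1a1 measured 796, 352 and 271 CPM in PBS and 247, 972, 528 and 632 CPM at day 11, again lowest in that replicate. Fbn1, fibrillin 1, was nearly absent in PBS, at 0, 0.0535 and 20.5 CPM, and measured 28.9, 63.6, 172 and 167 CPM at day 11. Of the inhibitors of matrix proteases, Timp2 measured 1308, 1344 and 1068 CPM in PBS and 2137, 1186, 2145 and 2287 CPM at day 11, whereas Timp3 averaged 2586 ± 496 and 2308 ± 186 CPM. Fn1, fibronectin, overlapped between groups with a log2 fold change of 0.67 ± 0.95.

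Basement membrane genes were mostly on the higher side at day 11. Of 12 members tested 10 had a positive fold change, with a median of 0.49, and 2 (16.7%) were separated between groups, both of them chains of the alpha1-alpha2 type IV collagen network that mesangial and endothelial cells make. Col4a1 (chr8:11198423-11312826, minus strand) measured 356, 405 and 529 CPM in PBS and 747, 751, 727 and 1160 CPM at day 11. It was 0.98 ± 0.27 higher on the log2 scale (edgeR adjusted p = 0.365), and 0.78 higher without day 11 replicate 4, whose value lay far above the rest. Col4a2 measured 486, 150 and 446 CPM in PBS and 785, 603, 790 and 922 CPM at day 11. The podocyte chains Col4a3 and Col4a4 had log2 fold changes of 0.00 ± 0.42 and 0.19 ± 0.43 with overlapping groups, and Lamb2, a laminin chain of the mature membrane, had -0.13 ± 0.34. Whether the chains differed from each other in their response was not tested.

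Of 11 tested S100 and annexin genes 9 had a positive fold change (81.8%, against 49.8% of all genes), with a median of 0.43 and 2 (18.2%) separated. S100a6, calcyclin, measured 29.3, 127 and 189 CPM in PBS and 212, 472, 542 and 704 CPM at day 11, and S100a10, the partner of annexin A2, measured 26.5, 48.9 and 47.6 CPM against 157, 89.5, 139 and 180 CPM. S100a10 averaged under 50 CPM in PBS and was tested only through its day 11 values. S100a6 had a log2 fold change of 2.07 ± 0.52, and 1.60 without PBS replicate 1. Among 15 integrin and focal adhesion genes the median was 0.11, and -0.01 without day 11 replicate 2, with 4 separated upwards and 1, Tns3, downwards. Itgb1, the beta1 chain shared by most matrix-binding integrins, measured 783, 734 and 614 CPM in PBS and 1190, 1098, 991 and 1125 CPM at day 11. Ilk, integrin-linked kinase, and Fermt2, kindlin-2, which activates integrins, were separated the same way at 0.94 ± 0.46 and 0.94 ± 0.44.

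Cell cycle genes were mostly too low to test: 21 of 30 lay under the minimum. Of the 9 tested, 8 had a positive fold change, the median was 1.17 and 3 (33.3%) were separated, but Top2a, Mcm7 and Cdkn1a averaged under 50 CPM in PBS and were tested only through their day 11 values. The summed level of the 30 genes overlapped, at 1642, 821 and 1666 CPM in PBS and 1439, 2069, 3400 and 2516 CPM at day 11. Ccnd1, cyclin D1, which drives entry into the cycle, measured 207, 111 and 274 CPM in PBS and 387, 454, 406 and 629 CPM at day 11, a log2 fold change of 1.250 ± 0.36 (edgeR adjusted p = 0.42). Top2a, a topoisomerase made in dividing cells, measured 16.8, 9.62 and 0 CPM in PBS and 119, 202, 354 and 135 CPM at day 11. Mki67, the proliferation marker, did not reach the minimum and was at 0, 0 and 0.323 CPM in PBS and at 0, 46.0, 167 and 55.4 CPM at day 11. Both rested on few reads in PBS. Cdkn1a, the cell cycle inhibitor p21, measured 28.2, 10.6 and 90.1 CPM against 131, 127, 201 and 201 CPM.

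**Figure D3:**
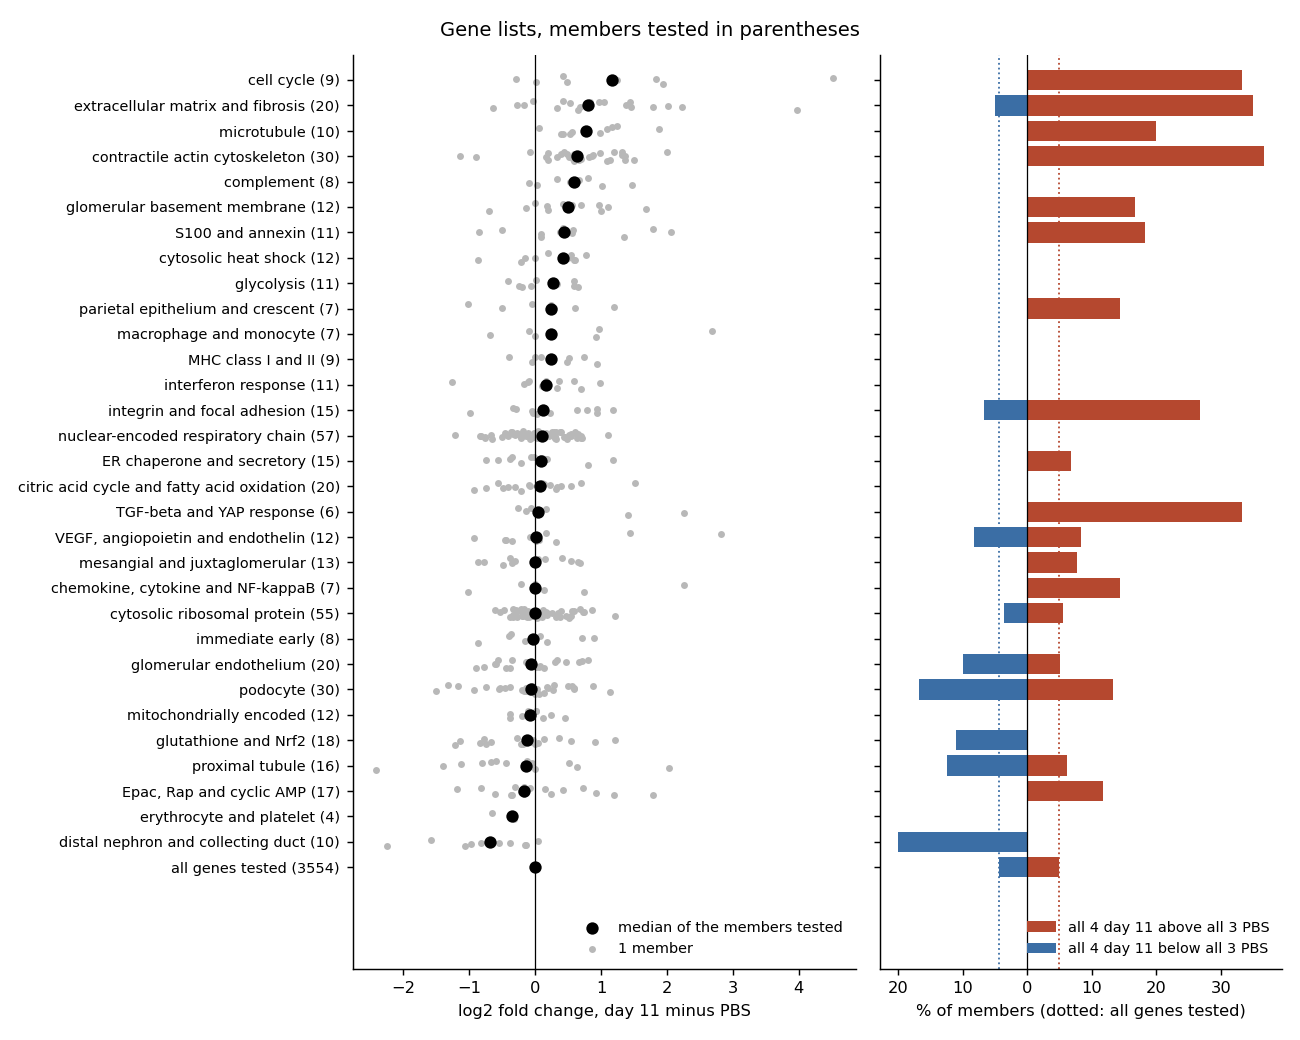
Left, the log2 fold change (day 11 minus PBS) of each tested member as a grey point and the median of each of 31 gene lists as a black point. Right, the percent of members whose 4 day 11 libraries all lay above (red) or below (blue) the 3 PBS libraries, with dotted lines at the 4.92% and 4.42% of all genes tested; the contractile actin list reaches 36.7%.

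Podocyte genes went in both directions. Of 30 tested 14 had a positive and 16 a negative fold change, with a median of -0.06, and of 0.06 without day 11 replicate 2. Every day 11 library lay above every PBS library in 4 members (13.3%) and below in 5 (16.7%). The 4 higher members were Actn4, Clic5, Dag1 and Npnt, and the 5 lower were Thsd7a, Wt1, Vegfa, Synpo and Cd2ap. The summed level of the 35 podocyte genes overlapped between the groups.

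Thsd7a, a podocyte membrane protein that is an antigen in membranous nephropathy (chr6:12311610-12749410, minus strand), measured 1086, 731 and 811 CPM in PBS and 411, 289, 226 and 315 CPM at day 11. The highest day 11 mouse lay far under the lowest PBS mouse. The log2 fold change was -1.496 ± 0.28 and had the smallest adjusted p of all genes, 0.0917 (edgeR), and over the omission of single libraries it ran from -1.68 to -1.32, with an adjusted p from 0.0447 (without day 11 replicate 1) to 0.382. Vegfa, the growth factor with which podocytes maintain the endothelium (chr17:46016993-46032369, minus strand), measured 499, 440 and 579 CPM in PBS and 291, 235, 363 and 181 CPM at day 11. Its groups were separated too, by -0.92 ± 0.33 (edgeR adjusted p = 0.662). Wt1, the transcription factor that keeps podocytes differentiated, measured 131, 116 and 223 CPM in PBS and 84.2, 68.6, 73.1 and 51.9 CPM at day 11, or -1.17 ± 0.57.

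Slit diaphragm and foot process genes gave no common direction. Nphs1, nephrin, the chief adhesion molecule of the slit diaphragm, measured 550, 459 and 560 CPM in PBS and 657, 340, 568 and 302 CPM at day 11, with 2 day 11 mice above and 2 below the PBS range. Synpo, synaptopodin, an actin organizer of the foot process, measured 1346, 1299 and 2031 CPM against 1271, 1275, 1207 and 1028 CPM, which was -0.38 ± 0.28. Ptpro, a phosphatase on the podocyte surface, measured 485, 228 and 390 CPM in PBS and 71.9, 198, 79.6 and 240 CPM at day 11, a log2 fold change of -1.32 ± 0.41 with overlapping groups. Podxl, podocalyxin, the charged coat of the podocyte, measured 1218, 1040 and 1708 CPM against 1601, 1766, 561 and 2055 CPM, so day 11 replicate 3 was low and the other 3 overlapped PBS or lay above it. Dag1, dystroglycan, which anchors the cell to laminin, measured 427, 428 and 476 CPM in PBS and 1258, 877, 613 and 1173 CPM at day 11, or 1.14 ± 0.32 (edgeR adjusted p = 0.372). Actn4, the alpha-actinin of the foot process, averaged 609 ± 137 CPM in PBS and 1121 ± 247 at day 11.

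The endothelial and mesangial lists had medians of -0.06 and 0.01, the latter -0.12 without day 11 replicate 4 and 0.14 without PBS replicate 3. Ehd3, which in the kidney marks glomerular endothelium, measured 3372, 2683 and 2342 CPM in PBS and 2047, 1795, 2084 and 1646 CPM at day 11, or -0.56 ± 0.26. It was 1 of 2 endothelial members (10%) that were lower without overlap, and 1 member (5%) was higher without overlap. Of the 20 endothelial genes tested, 10 had a positive and 10 a negative fold change. Kdr, the main VEGF receptor, overlapped at -0.35 ± 0.24. Ednrb, the endothelin B receptor, measured 19.7, 17.7 and 28.1 CPM in PBS and 152.6, 141, 175 and 150 CPM at day 11, with a log2 fold change of 2.82 ± 1.12 (edgeR adjusted p = 0.79). It reached the minimum only through its day 11 values. Serpine2, a protease inhibitor expressed by mesangial cells, was separated at 565 ± 122 and 826 ± 124 CPM. Ren1, renin, from the juxtaglomerular cells at the vascular pole, measured 2068, 1678 and 2183 CPM in PBS and 596, 3913, 3737 and 4110 CPM at day 11. There 3 mice lay above PBS and replicate 1 below it.

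Most tubule genes had negative fold changes at day 11. Of 16 proximal tubule genes tested 13 had a negative fold change, and of 10 distal nephron genes 9 did, with medians of -0.14 and -0.68. The proximal tubule median ran from -0.65 without day 11 replicate 1 to 0.14 without day 11 replicate 3, so its sign turned on 1 library, and the distal median ran from -0.96 to -0.30. Slc12a1, the sodium-potassium-chloride cotransporter of the thick ascending limb (chr2:125152505-125230002, plus strand), measured 876, 891 and 604 CPM in PBS and 437, 316, 147 and 152.8 CPM at day 11. The groups did not overlap, at -1.59 ± 0.62 (edgeR adjusted p = 0.762). Kap, the androgen-regulated protein of the proximal tubule, measured 311, 613 and 150 CPM against 106, 19.6, 87.6 and 54.9 CPM. Gpx3, the plasma glutathione peroxidase made in the proximal tubule, measured 5350, 4504 and 7480 CPM in PBS and 5602, 4983, 1467 and 2460 CPM at day 11, where replicates 3 and 4 were low. The part that tubule cut along with the glomeruli had in these values was not tested as such. With proximal tubule content as a covariate the log2 fold change of Kap went from -2.42 to -1.46, and that of Slc12a1 was -1.59 in both fits. The covariate was the mean log2 level of the proximal tubule list, which includes Kap and not Slc12a1. The shift of Kap was therefore built in to some extent, and nothing is read from it.

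**Figure D4:**
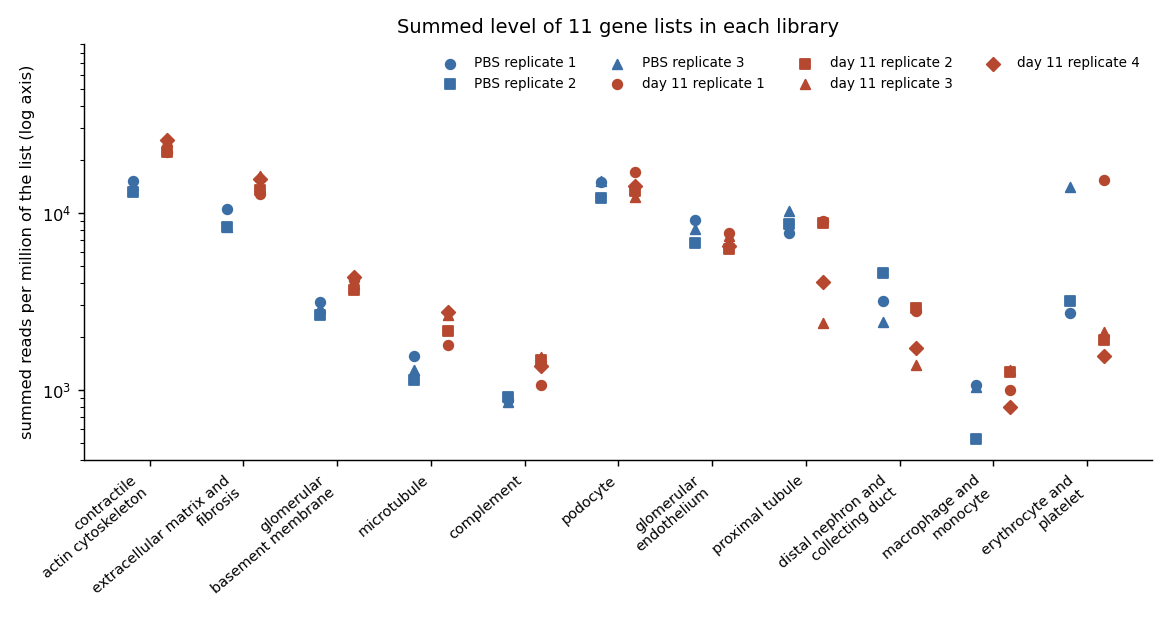
Summed CPM of 11 gene lists on a log axis, with 1 marker per library, blue for PBS and red for day 11. The actin, matrix, basement membrane, microtubule and complement sums of the 4 day 11 libraries lie above those of the 3 PBS libraries; the podocyte, endothelial, tubule, macrophage and erythrocyte sums overlap.

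Few leukocyte genes reached the minimum. Of 28 macrophage and monocyte genes 7 reached the minimum, and their whole list summed to 1070, 527 and 1041 CPM in PBS and 1003, 1269, 1291 and 795 CPM at day 11. The defining marker Cd68 was above 0 in 1 of the 7 libraries and Adgre1 in 2. Lgals3, galectin-3, measured 36.8, 3.37 and 13.1 CPM in PBS and 28.4, 122, 167.8 and 140 CPM at day 11, and macrophages are not its only source. No lymphocyte or neutrophil gene reached the minimum: the 20 lymphocyte genes summed to 2.56 to 80.7 CPM in PBS and 14.1 to 63.8 at day 11, and the 14 neutrophil genes to 0.246 to 93.8 and 0.500 to 62.8. Cd3e of T cells and Ly6g, Mpo and Elane of neutrophils had 0 reads in all 7 libraries, which allows a level of up to 0.224 CPM in the smallest library (3 counts, counting error only).

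Complement genes summed to 872, 914 and 854 CPM in PBS and 1071, 1481, 1528 and 1369 CPM at day 11, without overlap. Their mean log2 level (of CPM plus 1) did overlap, at 3.04, 3.42 and 3.57 against 4.55, 4.27, 3.74 and 3.47. Of the 21 genes 13 lay under the minimum. Clu, clusterin, an inhibitor of the terminal complement pathway, measured 62.4, 116 and 148 CPM in PBS and 118, 373, 296 and 421 CPM at day 11 (log2 fold change 1.47 ± 0.47). Of the 8 complement members tested none was separated between groups. Tnfaip2, a gene induced by tumour necrosis factor, measured 20.2, 50.04 and 76.5 CPM in PBS and 248, 242, 338 and 109 CPM at day 11, a log2 fold change of 2.26 ± 0.52 (edgeR adjusted p = 0.128). The other 6 chemokine, cytokine and NF-kappaB genes tested overlapped, and Il6, Tnf, Cxcl2 and Ccl8 were at 0 in all 7 libraries. B2m, the light chain of MHC class I, measured 162, 156 and 128 CPM against 295, 348, 154 and 339 CPM. Apoe, apolipoprotein E, was lower, at 354, 612 and 283 CPM in PBS and 264, 165, 168.1 and 194 CPM at day 11, or -1.07 ± 0.31 (edgeR adjusted p = 0.42).

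Metabolic genes were centred on 0. The 57 nuclear respiratory chain genes had a median log2 fold change of 0.11, the 12 mitochondrially encoded genes -0.07, and the 20 genes of the citric acid cycle and fatty acid oxidation 0.07. None of these genes was separated between groups. Each of the 3 medians took both signs as single libraries were left out, from -0.30 for the mitochondrially encoded genes without day 11 replicate 1 to 0.27 for the nuclear genes without day 11 replicate 3. Mitochondrial RNA varied more within day 11 than between the groups: mt-Nd1, a complex I subunit, measured 5157, 5280 and 5601 CPM in PBS and 8101, 6307, 1936 and 4011 CPM at day 11, lowest in replicate 3. Of 11 glycolytic genes 7 had a positive fold change, 0 had an unadjusted p under 0.05 and 0 were separated. Their median was 0.27 over all libraries and ran from -0.05 (without day 11 replicate 2) to 0.23 as single libraries were left out. Pkm, pyruvate kinase, measured 232, 196 and 294 CPM in PBS and 129, 308, 415 and 306 CPM at day 11, and Hk1, a hexokinase, had a log2 fold change of 0.60 ± 0.51. Of 55 ribosomal protein genes 27 had a positive and 28 a negative fold change. Without overlap 3 were higher (5.5%, against 4.92% of all genes) and 2 lower (3.6%, against 4.42%). Among the 3 was Rplp0 at 292 ± 76.9 CPM in PBS and 531 ± 173 CPM at day 11.

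Of the Epac and cyclic AMP genes, Rapgef3 itself (chr15:97744770-97767972, minus strand) measured 290, 194 and 290 CPM in PBS and 126, 137, 192 and 344 CPM at day 11. In 3 mice it lay below the PBS range and in replicate 4 above it, so the log2 fold change was -0.37 ± 0.41, and -0.78 without that replicate. The edgeR adjusted p was at least 0.996 in either case. Of the 3 listed anchoring proteins, which hold protein kinase A in place, Akap12 measured 273, 90.8 and 154 CPM in PBS and 329, 283, 567 and 411 CPM at day 11, and Akap2 measured 30.6, 115 and 269 CPM against 229, 514, 533 and 642 CPM. Akap13 averaged 152 ± 65.9 CPM in PBS and 136 ± 93.5 at day 11. Prkacb, a catalytic subunit of that kinase, measured 240, 207 and 71.1 CPM in PBS and 121, 59.8, 69.0 and 53.0 CPM at day 11. The groups did not overlap in Akap12 and did in Akap2, Akap13 and Prkacb. Of 17 members tested 7 had a positive fold change and the median was -0.16.

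Other genes among the 20 with the smallest p had no place in the lists above. 2310022B05Rik, a gene without an established name (chr8:124635756-124663369, minus strand), measured 74.3, 47.2 and 100.6 CPM in PBS and 402, 222, 183 and 263 CPM at day 11, or 1.85 ± 0.38 with an edgeR adjusted p of 0.093. Qsox1, which forms disulphide bonds in secreted proteins, measured 73.3, 34.4 and 38.3 CPM against 247, 135, 305 and 173 CPM. Fkbp1a, the immunophilin FKBP12, averaged 239 ± 29.1 CPM in PBS and 497 ± 87.9 at day 11, and Pura, a nucleic acid binding protein, averaged 615 ± 152.96 and 322 ± 68.0. Prorsd1 stood at 19.3, 3.85 and 12.4 CPM in PBS and 96.8, 109, 51.4 and 75.0 CPM at day 11. Of these 20 genes 17 were higher and 3 lower, and in all 20 the groups did not overlap, which follows in part from ranking them by p. Tnfaip2, Qsox1 and Prorsd1 averaged under 50 CPM in PBS and were tested only through their day 11 values.

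The day 4 and day 11 comparisons share the same 3 PBS libraries, so their values are set side by side. Thsd7a averaged 326 ± 97.8 CPM (n = 3) at day 4 and 311 ± 76.9 (n = 4) at day 11, and Tpm4 697 ± 26.7 and 747 ± 217. Tuba1b averaged 931 ± 343 at day 4 and 690 ± 120 at day 11, Sparc 4527 ± 407 and 5726 ± 363, and Spp1 171 ± 84.7 and 279 ± 89.4. The direct test of day 11 against day 4 called 0 of 3554 genes with edgeR (89 at an unadjusted p under 0.05), and its smallest adjusted p was 1. Among the 47 named genes 3 had an unadjusted p under 0.05 in it. They were Qsox1, at 87.99 ± 46.4 CPM on day 4 and 215 ± 75.8 on day 11, Pura, at 541 ± 50.2 and 322 ± 68.0, and Kap, at 557 ± 420 and 67.0 ± 38.0. The contractile actin list had a median of 0.59 at day 4 and 0.63 at day 11 against PBS, while the proximal tubule list had 0.55 and -0.14 and the extracellular matrix list 0.34 and 0.81.

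The same stage in NPHS2Cre:Epac1fl/fl mice, measured against their own PBS libraries, gave a separate set of animals. These libraries were less even: they held 19889645 to 20974784 reads in PBS and 4550550 (replicate 3) to 17200905 at day 11. Ribosomal RNA took 17.3% to 25.4% of reads in PBS and 22.2% to 39.5% (replicate 4) at day 11. That replicate 4 had a TMM factor of 0.721. There edgeR called 6 genes: Thsd7a, Spp1, Sparc, Col4a1, Tpm1 and Csrp1. Thsd7a averaged 1168 ± 114 CPM in their PBS mice and 284 ± 102 at day 11, with a log2 fold change of -2.04 ± 0.29 (edgeR adjusted p = 0.00124), beside -1.496 ± 0.28 in Epac1fl/fl. Sparc had 1.46 ± 0.24 beside 1.05 ± 0.24, and Spp1 2.41 ± 0.47 beside 2.22 ± 0.46. Of the 47 named genes 38 (80.9%) had the same sign in both genotypes, as did 2037 (57.3%) of all 3554 genes; most named genes were picked by a small p in Epac1fl/fl, so nothing is read from the larger share. The test of the difference between the genotypes called 0 of 3554 genes (74 at an unadjusted p under 0.05, smallest adjusted p 0.999), so a call in one genotype and not in the other was not shown to be a difference between them. At an unadjusted p under 0.05 that test held 7 named genes, 2310022B05Rik, Qsox1, Col4a1, Prorsd1, Apoe, Gstp1 and mt-Co2. The Epac1fl/fl libraries that ranked the named genes also enter this test, so their number is a description only. Apoe averaged 416 ± 173 and 198 ± 46.3 CPM in Epac1fl/fl but 276 ± 81.7 and 348 ± 43.4 in the Cre mice, and Prorsd1 11.8 ± 7.72 and 83.1 ± 25.5 but 65.8 ± 37.4 and 54.0 ± 29.7.

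**Figure D5:**
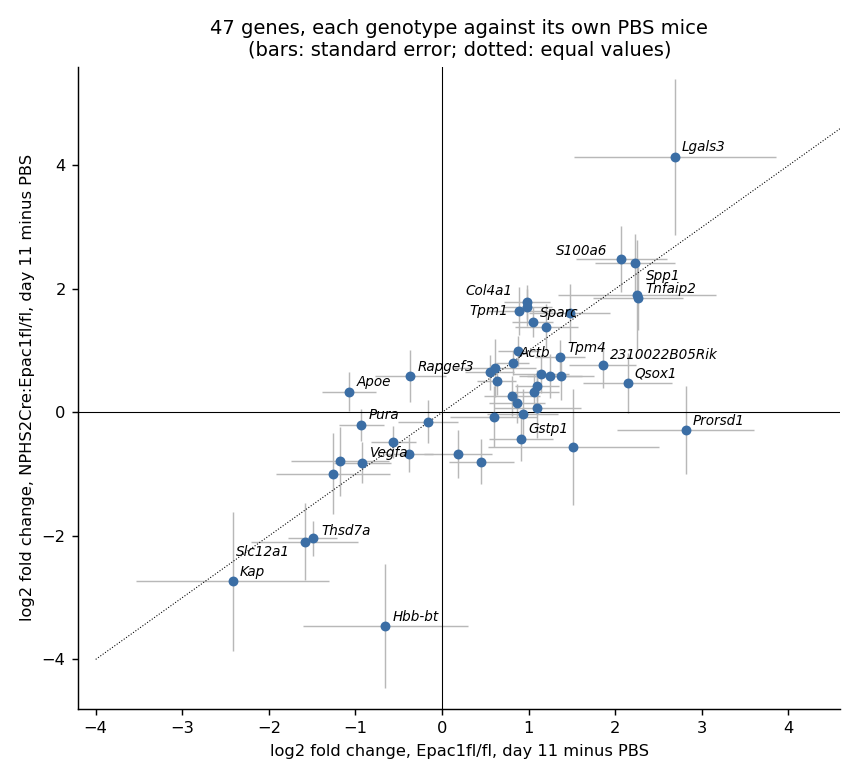
Each point is 1 of the 47 named genes, with its log2 fold change (day 11 minus PBS) in Epac1fl/fl on the horizontal axis and in NPHS2Cre:Epac1fl/fl on the vertical axis; bars are standard errors and the dotted line marks equal values. For 38 genes both values have the same sign, and Prorsd1, Apoe and Hbb-bt lie far from the dotted line.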

How the data were processed

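The authors deposited 1 table per library with raw estimated counts for each gene, per the file headers. FastQC, fastp, DRAGEN, Picard and mm10 are named in the submitters' processing notes without roles; not given in the sources used here are the strand setting and the handling of duplicates, so overlapping genes and near-identical copies are uncertain. Of values above 0, 95.2% were whole within 0.005. By identifier without version, 35513 of 35598 genes matched GENCODE M21, and of 45 shared symbols the identifier with the most reads kept the name. Promoter windows came from RefSeq.

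The counts were rounded, and edgeR 4.0.16 (R 4.3.3) ran its robust quasi-likelihood test after TMM scaling. The model took all 21 libraries as 6 group means with 15 residual degrees of freedom, on the 3554 genes with mean CPM of at least 50 in the 7 libraries, and p-values were Benjamini-Hochberg adjusted over them. Adjusted p-values named edgeR are from this fit, which was tested on simulated data. Printed CPM use TMM-adjusted library sizes (factors 0.955 to 1.11 in the 7 libraries), and the standard error is the absolute log2 fold change over the square root of F. The common biological coefficient of variation was 0.72. P-values measure the spread between mice within the 6 groups, pooled over all 21 libraries and not over the 7 alone. With only the 7 libraries in the edgeR fit, the smallest adjusted p was 0.218. DESeq2 1.42.0 and limma 3.58.1 were alternatives, as were other filters, scalings, sample sets and covariates and the omission of each library.

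Named genes are called genes with the widest separation (there were none), the member of each list with the smallest p, Rapgef3, Nphs1, Podxl, Synpo and Wt1, and the 20 genes with the smallest p. Other list members were chosen after their values were seen. List counts and medians cover all members tested, some of which are not reported here by name. The comparison and the 33 lists, drawn from general knowledge, were chosen with earlier results of these data known. Figures used matplotlib in Python.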

Additional observations from a re-analysis of the deposited data

Results flagged for a closer look

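In a group of 4 libraries, 1 library was set down as far from the rest when its gap to the nearest exceeded Dixon's 95% critical share of the group's range. Of 86 values examined 6 met this, where chance gives about 1 in 20. Day 11 replicate 1 held haemoglobin at 1.53% of reads (0.160% to 0.199% in the other 3), Hbb-bt at 887 CPM (77.0 to 100.6) and the erythrocyte and platelet list at 15279 CPM (1553 to 2132). PBS replicate 3 was also high, so these genes overlap between the groups. The interferon list was highest in the same library, at 3716 CPM (3292 to 3334). The endoplasmic reticulum chaperone list was at 5002 CPM in day 11 replicate 3 (3095 to 3264). Col4a1 was at 1160 CPM in day 11 replicate 4 (727 to 751). The test of the genotype difference called 0 genes.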

How the results depend on the processing

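The count of 0 genes higher and 0 lower was kept with the whole table after filterByExpr (13898 genes, smallest adjusted p 0.109), a CPM minimum of 20, median-ratio factors, only the 7 or the 10 Epac1fl/fl libraries, a tubule or detected-genes covariate, ribosomal, mitochondrial and haemoglobin genes removed, a non-robust fit and an added log2 limit of 1. It became 3 higher and 1 lower without a low-count filter, with a CPM minimum of 100 and at an adjusted p under 0.1, 15 and 2 with DESeq2, and 1 and 1 with limma voom; the cause was not tested. At an unadjusted p under 0.05 the main fit had 120 higher and 63 lower of 3554 genes. There were 820 and 327 of 13898 in the whole table and 800 and 570 of 18311 without a filter. With only the 7 libraries, only the 10 and limma voom, 95, 99 and 126 of 3554 genes were lower. The counts without overlap were 175 and 157 of 3554 genes in the main fit. They were 537 and 351 of 13898 in the whole table and 545 and 356 of 18311 without a filter. At a CPM minimum of 20 they were 313 and 264 of 6668, and at 100 they were 92 and 82 of 1711. These sets differ in size, so the counts are not to be compared directly. The counts rose to up to 362 and 360 when a library was left out, since fewer libraries overlap less often. Leaving out single libraries gave 0 to 2 higher and 0 to 1 lower: without PBS replicate 3, Rhog and Fam168b were called higher, and without day 11 replicate 1, Tpm4 higher and Thsd7a lower. With the replicate block, 0 and 0 were called (151 at an unadjusted p under 0.05); the correlation of deviations of same-numbered libraries was 0.030, 0.036 and 0.048, so the numbers were not shown to pair mice. Of 1073 values of the 47 named genes under 23 settings, 1040 kept direction and side of the threshold, 31 kept direction and passed it, and 2 reversed: Hbb-bt ranged from -2.35 to 0.60 and Podxl from -0.0165 to 0.45 as single libraries were left out, with Hbb-bt positive without PBS replicate 3 and Podxl negative without day 11 replicate 4. Low genes are limited by depth: 113 tested genes had 0 reads in at least 1 of the 7 libraries.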
